A study of Mus musculus with 10 samples.

Results

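The natural killer gene complex is a cluster of receptor genes on distal mouse chromosome 6, and it was read here as every array probe that starts between positions 127900000 and 131300000 of mm9. This interval of 3.4 Mb held 231 of the 170305 probes measured, and 161460 of those lie on autosomes. The probes were taken by position alone, and the interval itself was picked with earlier results of these data known.

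The genes of this cluster encode C-type lectin-like proteins of natural killer cells and other leukocytes. The Klra (Ly49) receptors and the Klrc receptors with their partner Klrd1 read MHC class I molecules on other cells, Klrk1 (NKG2D) reads ligands shown by stressed cells, and Klrb1 receptors read Clec2 proteins, whose genes lie among the Klrb1 genes. Klra genes are known to differ in number and sequence between inbred mouse strains, so the interval is a common site of strain differences in DNA hybridisation.

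Liver DNA of 10 mice was measured by array comparative genomic hybridisation, in which DNA of an animal and of a reference compete for the same probes. The 5 ICSI-derived animals (intracytoplasmic sperm injection, a single sperm placed into an oocyte) were ZFLacZ progeny from testis cells that had been frozen for 14 years, with ZFLacZ sperm and oocytes of DBA x C57BL/6 females. The 5 naturally born animals were adult ZFLacZ progeny that served as wild-type controls. The transgenic line itself goes back to SJL x C57BL/6, which both groups share through it, and the labels list the DBA contribution for the ICSI-derived group alone. Strain background, mode of birth and the 14 years of frozen storage therefore change together and cannot be told apart. Each group has 3 animals labelled male (replicates 1 to 3) and 2 labelled female (replicates 4 and 5). Every animal's DNA carried Cy5, and the Cy3 reference was an equal pool of C57BL/6, SJL and DBA DNA, so the reference itself mixes 3 versions of the interval. Values are log2 ratios of animal over pool, centred on the median of the autosomal probes of that array. A single probe's ratio cannot tell apart a change in copy number and a sequence difference under the probe.

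Between 173864 and 174090 of 174305 spots per array were well above background. The spread between neighbouring probes was 0.21 in ICSI-derived replicate 4, 0.20 in ICSI-derived replicate 1 and 0.17 in naturally born replicate 2, and lay between 0.14 and 0.15 on the other arrays. Naturally born replicate 3, labelled male, had a mean log2 ratio of -0.033 on chromosome X and -0.0072 on chromosome Y. Both lay between the other males (chromosome X -0.61 to -0.55, chromosome Y 0.75 to 0.82) and the females (0.26 to 0.28 and -1.57 to -1.42). Whether its DNA is mixed or its label wrong was not tested. It was fitted as male, and its values below, often between those of other animals, carry this limit. Naturally born replicate 5 had a mean of 0.070 over the rest of chromosome 6, against -0.0041 to 0.010 in the other animals. Centring on chromosome 6, run as an alternative, leaves that shift aside. Values below are centred on the autosomes unless stated, so those of naturally born replicate 5 include the shift.

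Of the 231 probes, 230 were well above background in both channels on all 10 arrays, and none was saturated or marked as an outlier spot. The exception was the probe at chr6:129939104-129939163, which was well above background on 0 of 10 arrays, so its own values are not read as levels and means that include it are given without it. Coverage was uneven. Of 34 windows of 100 kb in the interval, 9 held fewer than 3 probes (26.5%), against 13.1% of 24093 autosomal windows, and 4 held none. The widest spacing was 551 kb, from the probe that starts at 130427621 to the one at 130979083, and the next was 159 kb, after the probe that starts at 130020053. Elsewhere the probes were about as dense as usual, with a median spacing of 9.68 kb against 10.8 kb over the autosomes.

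In the RefSeq annotation of GRCm38, a later build used here for names and order only, the stretch from Klrb1a to Klra2 lists 11 coding Klra genes with 3 pseudogenes, 14 other coding Klr genes and 13 coding Clec genes. From the centromere outward the order begins with the Klrb1 and Clec2 genes and Cd69, an early activation marker of lymphocytes. The myeloid Clec genes follow, among them Clec9a, a receptor of dendritic cells for dead cells, and Clec7a, the beta-glucan receptor dectin-1. After them come Klrd1, Klrk1 and the Klrc genes, and then the Klra genes. The files carry no gene names, so which gene a given probe lies in was not analysed here.

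The study's main question, whether the genomes of ICSI-derived animals differ from those of naturally born animals, gave no call in the interval. With limma (group and sex in the model, Benjamini-Hochberg adjustment over all autosomal probes at 0.05), 0 of 231 probes were called higher in ICSI-derived animals, where the share over all autosomal probes was 0.0155%, and 0 were called lower, where it was 0.00434%. At these rates no call among 231 probes is close to the background. At an unadjusted p under 0.05, 20 probes passed, 14 higher and 6 lower in ICSI-derived animals, which is 8.66% against 3.27% over the autosomes. The share depended on which animals were used. With any 1 animal left out it stayed above the autosomal share. It ran from 13 probes (5.63%, against 2.60% over the autosomes) without naturally born replicate 4 to 33 (14.3%, against 3.91%) without ICSI-derived replicate 2. It was 30 (13.0%, against 3.10%) without naturally born replicate 3. Within slide 1 it was 4 probes (1.73%, against 2.20%), within slide 2 it was 8 (3.46%, against 3.61%), and without the 3 noisiest arrays it was 12 (5.19%, against 5.36%), so in each of these subsets the interval was at the autosomal share. These subsets hold few animals and cannot show whether the excess is absent. After adjustment there were 0 calls in all of these fits.

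Averaging neighbouring probes did not change this. Of 25 windows of 100 kb with at least 3 probes, 0 were called by limma in either direction, against 0.0143% of 20941 windows higher and 0.00% lower over the autosomes. At an unadjusted p under 0.05 there was 1 window (4.00%, against 3.01%), from 129.0 to 129.1 Mb, with a difference of -0.088 ± 0.040 (SE). Leaving out ICSI-derived replicate 2 gave 4 such windows, leaving out ICSI-derived replicate 3 gave 2 and leaving out naturally born replicate 3 gave 3, while leaving out any 1 of the other 7 animals gave 0. The window holds the probe with the widest range of the interval, at 129097488, and over its other 10 probes every animal lay between 0.014 and 0.066.

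The probe with the lowest p in the interval was that at chr6:128736781-128736840. Its log2 ratio was 1.14, 0.50, 0.81, 0.94 and 0.72 in ICSI-derived replicates 1 to 5 and 0.41, 0.25, 0.64, 0.36 and 0.31 in naturally born replicates 1 to 5. All 10 animals lay above the pool, and the groups overlapped between 0.50 and 0.64. The difference was 0.43 ± 0.11 (SE), with an unadjusted limma p of 0.0021 and an adjusted p of 1.00. Its 4 nearest neighbours, 2 on each side, averaged between 0.0059 and 0.39 across the animals.

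The groups did not overlap at 2 of 231 probes (0.866%, against 0.510% of autosomal probes), and neither passed the adjusted limma test. At chr6:131227807-131227866 the ICSI-derived animals had -0.012, 0.025, -0.039, 0.13 and 0.18 and the naturally born animals -0.10, -0.22, -0.12, -0.35 and -0.12, a difference of 0.24 ± 0.065 (SE). At chr6:129439025-129439084 the order was the other way. The ICSI-derived animals had -0.031, 0.10, 0.069, 0.079 and 0.012 and the naturally born animals 0.11, 0.14, 0.20, 0.15 and 0.34, a difference of -0.14 ± 0.056 (SE).

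As a whole the interval sat near the level of the autosomes in every animal. The mean over the 231 probes was 0.089, -0.0049, -0.00033, 0.080 and 0.067 in ICSI-derived replicates 1 to 5 and 0.012, 0.0079, 0.039, 0.013 and 0.058 in naturally born replicates 1 to 5. The highest 3 values belonged to ICSI-derived replicates 1, 4 and 5, while ICSI-derived replicates 2 and 3 were the lowest of all 10. Group means were 0.046 ± 0.045 (SD, n = 5) and 0.026 ± 0.022 (SD, n = 5), a difference of 0.020 that is smaller than the spread within the ICSI-derived group. Centred on the rest of chromosome 6, naturally born replicate 5 fell to -0.014 and the difference was 0.031. Without the 3 noisiest arrays, which include ICSI-derived replicates 1 and 4, it was -0.0097.

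**Figure D1:**
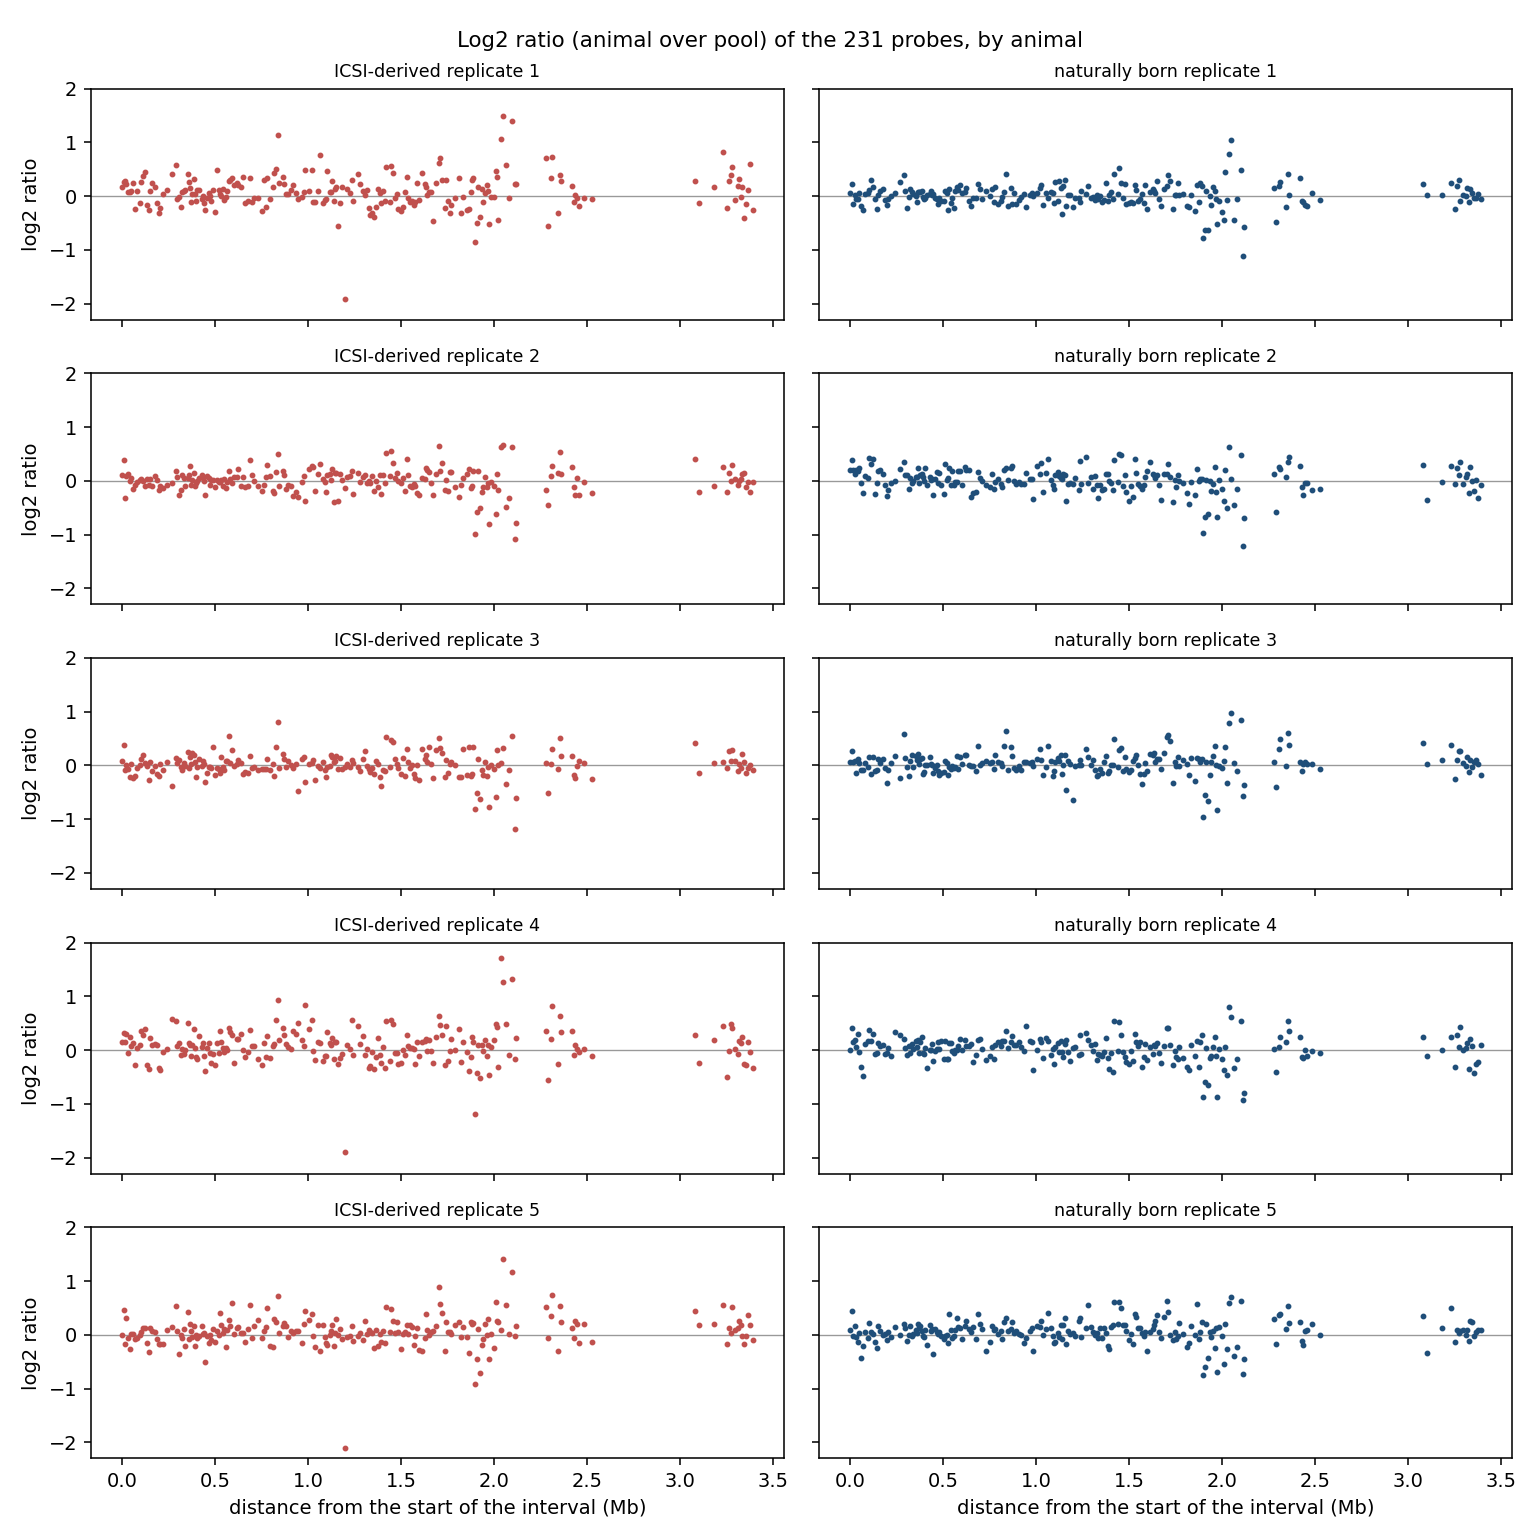
Log2 ratio of animal over pool (vertical axis) for the 231 probes against their distance from the start of the interval in Mb (horizontal axis), with 1 panel per animal and 1 point per probe. The widest departures from 0 in most animals lie about 2 Mb into the interval, with a lone low point at 1.20 Mb in ICSI-derived replicates 1, 4 and 5, and the space without points is the 551 kb spacing.

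Probes scattered more inside the interval than on the rest of chromosome 6 in each of the 10 animals. The SD over the 231 probes divided by that over the other 10021 probes of chromosome 6 was 1.52 ± 0.11 (SD, n = 5) in ICSI-derived and 1.39 ± 0.042 (SD, n = 5) in naturally born animals, with a lowest value of 1.33 and a highest of 1.69. These ratios compare an array with itself, so the noise of an array enters both sides.

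Part of this scatter was shared by all 10 animals. Every animal was in Cy5 and the pool in Cy3, so a shared offset from the pool and a dye effect of the probe cannot be told apart. All 10 animals lay below -0.3 at 4 probes (1.73%, against 0.0706% of autosomal probes) and above 0.3 at 3 probes (1.30%, against 0.254%). The lowest was chr6:129795763-129795821, with -0.84, -0.99, -0.82, -1.19 and -0.92 in ICSI-derived and -0.77, -0.97, -0.96, -0.87 and -0.74 in naturally born animals. No animal came near 0 there, and the groups overlapped. Close by, the probes that start at 129806695, 129826050 and 129874359 had medians of -0.56, -0.62 and -0.69, with ranges among animals of 0.24 to 0.41.

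Shared high values were found on both sides of these. At chr6:130254712-130254771 the ICSI-derived animals had 0.39, 0.54, 0.52, 0.63 and 0.54 and the naturally born animals 0.41, 0.35, 0.60, 0.54 and 0.53. At chr6:129347062-129347121 the median was 0.52 and 9 of the 10 animals lay between 0.47 and 0.61, with naturally born replicate 3 lower at 0.29, and the range fell from 0.33 to 0.14 without that animal. Thus probes with a raised and with a lowered ratio in every animal lay within 0.5 Mb of each other. The 4 neighbours of the lowest probe averaged between -0.15 and 0.073 across the animals.

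The rest of the scatter differed between animals. The range among animals, the highest value minus the lowest, was over 1 at 9 of 231 probes (3.90%), against 1.13% of autosomal probes, and over 0.5 at 58 probes (25.1%, against 15.0%). The median range was 0.37, against 0.33 over the autosomes. Of equally long flanks, the one on the centromere side had 2 of 277 probes with a range over 1 (0.722%) and a median range of 0.31, and the one on the telomere side 9 of 179 (5.03%) and 0.38. The interval was thus not set apart from the DNA on its telomere side. Of the 9 probes, 1 is the dim probe named above, and the count was 5 after normexp background correction and 5 without the 3 noisiest arrays.

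These probes were bunched, in stretches whose limits were chosen after the values were seen. Of the 9, 6 start between 129.9 and 130.1 Mb, where 11 members lie, and the dim probe is among the 6. With normexp correction the ranges at 129908813 and 129964703 stayed over 1, at 1.27 and 1.14. Those at 129946079, 130012400 and 130020053 were then 0.58, 0.48 and 0.99, so the bunching depended on background correction. None of the 88 members that start before 128.8 Mb and none of the 32 that start after 130.1 Mb had a range over 1. Ranges over 0.5 were not confined to these stretches, with 15 of the 79 members before 128.7 Mb (19.0%) and a highest range of 0.96 there. As means, the 8 windows before 128.7 Mb had ranges of 0.071 to 0.17, and 22 of the 25 windows had a range of at most 0.24. A range over 0.3 was found in 3 windows (12.0%, against 5.02% of autosomal windows), from 129.9 to 130.0 Mb, from 128.8 to 128.9 Mb and from 128.7 to 128.8 Mb. The latter pair passed 0.3 through single animals. The range from 128.8 to 128.9 Mb fell from 0.50 to 0.29 without ICSI-derived replicate 4, and that from 128.7 to 128.8 Mb from 0.34 to 0.29 without ICSI-derived replicate 1 and to 0.16 without the 3 noisiest arrays.

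The window from 129.9 to 130.0 Mb varied most. Without the dim probe, the mean of its 8 other probes was 0.48, -0.034, 0.012, 0.47 and 0.50 in ICSI-derived replicates 1 to 5 and 0.083, -0.12, 0.23, -0.037 and 0.011 in naturally born replicates 1 to 5. ICSI-derived replicates 1, 4 and 5 were the highest, naturally born replicate 3 came next, and ICSI-derived replicates 2 and 3 lay among the other naturally born animals, so the groups overlapped. Over all 9 probes, the dim probe included, the difference was 0.22 ± 0.11 (SE), with an unadjusted limma p of 0.060 and an adjusted p of 1.00.

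Inside that window single probes showed the same animals at the top on different base levels. At chr6:129908813-129908872 the log2 ratio was 0.47, -0.61, -0.59, 0.49 and 0.60 in ICSI-derived and -0.44, -0.38, 0.077, -0.37 and -0.54 in naturally born animals. At chr6:129964703-129964762 it was 0.59, -0.48, -0.34, 0.49 and 0.55 in ICSI-derived and -0.45, -0.45, 0.053, -0.34 and -0.40 in naturally born animals. At both, ICSI-derived replicates 1, 4 and 5 lay above the pool, naturally born replicate 3 lay near it, and the other 6 animals lay below it. The limma difference was 0.40 ± 0.23 (SE) at the first and 0.48 ± 0.20 (SE) at the second, each with an adjusted p of 1.00.

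At chr6:129999160-129999219 every animal was above the pool, with 1.39, 0.62, 0.56, 1.33 and 1.17 in ICSI-derived and 0.48, 0.47, 0.85, 0.54 and 0.63 in naturally born animals. Again ICSI-derived replicates 1, 4 and 5 were the highest and naturally born replicate 3 the next. At chr6:129946079-129946138 the values were 1.49, 0.67, 0.33, 1.27 and 1.41 in ICSI-derived and 1.05, 0.035, 0.98, 0.61 and 0.71 in naturally born animals. The same 3 animals led, naturally born replicate 2 was the lowest, and the range of 1.45 shrank to 0.58 with normexp correction.

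The adjoining probes moved from a lower base. At chr6:130012400-130012459 the ICSI-derived animals had 0.24, -1.08, -1.18, -0.16 and -0.021 and the naturally born animals -1.12, -1.21, -0.57, -0.92 and -0.73. At chr6:130020053-130020112 they had 0.22, -0.78, -0.61, 0.22 and 0.16 and -0.57, -0.69, -0.37, -0.79 and -0.45. ICSI-derived replicates 1, 4 and 5 were near the pool or above it at both probes, and every other animal was below it, with naturally born replicate 3 the highest of these. With normexp correction the range at the first of these probes fell from 1.44 to 0.48, while at the second, of 1.01, it did not move by more than the spread between animals of a group.

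**Figure D2:**
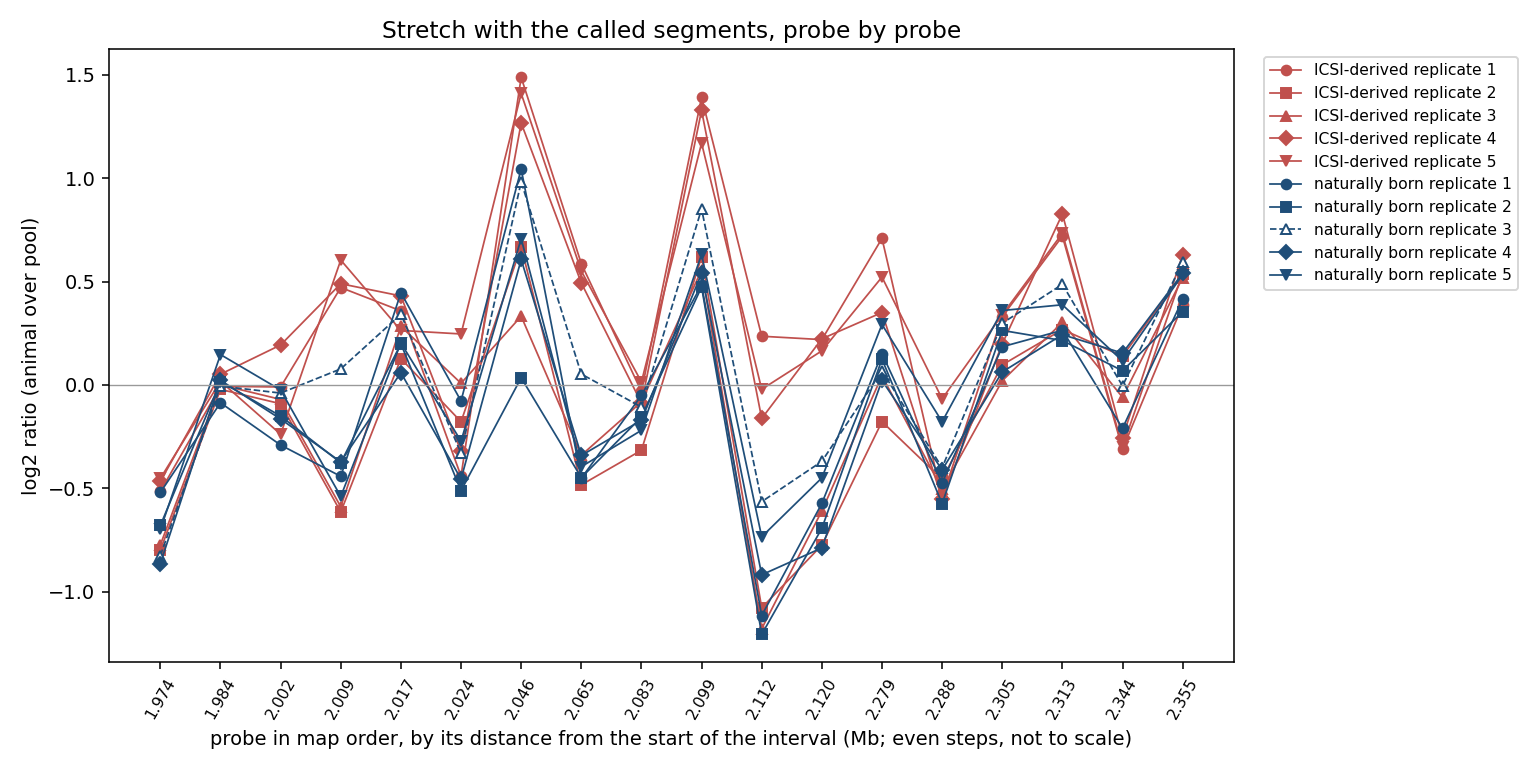
Log2 ratio of animal over pool (vertical axis) for consecutive probes of the stretch with the largest differences, in map order and evenly spaced, with 1 line per animal (ICSI-derived in red, naturally born in blue, naturally born replicate 3 dashed with open symbols); the dim probe is left out. ICSI-derived replicates 1, 4 and 5 run above the other animals at several probes while all 10 follow the same up and down pattern, and naturally born replicate 3 often lies between.

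The largest range of the interval was at a single probe away from that stretch, chr6:129097488-129097547, and went downward. The log2 ratio was -1.91, -0.13, -0.030, -1.89 and -2.10 in ICSI-derived replicates 1 to 5 and -0.19, -0.057, -0.63, 0.045 and 0.027 in naturally born replicates 1 to 5. ICSI-derived replicates 1, 4 and 5 stood far below all others, naturally born replicate 3 came next, and the groups overlapped. The difference was -1.05 ± 0.36 (SE), with an unadjusted limma p of 0.013 and an adjusted p of 1.00. The 4 neighbouring probes averaged between -0.067 and 0.084 across the animals, so the low values did not extend to them. The Cy5 signal of the animals ranged over 2.18 on the log2 scale there and the Cy3 signal of the pool over 0.17.

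A lone probe with the opposite direction lay at chr6:128884254-128884313, with 0.48, -0.38, -0.32, 0.84 and 0.44 in ICSI-derived and 0.013, -0.34, -0.011, -0.37 and -0.30 in naturally born animals. Downward again was chr6:129767570-129767629, with -0.25, 0.23, 0.34, -0.40 and -0.35 in ICSI-derived and 0.21, 0.21, 0.14, 0.17 and 0.57 in naturally born animals. At both probes ICSI-derived replicates 1, 4 and 5 were on 1 side and the other 7 animals on the other. Another pattern was seen at chr6:128965653-128965712, where ICSI-derived replicate 1 was the highest at 0.76 and ICSI-derived replicate 5 the lowest at -0.30; there the range of 1.06 shrank to 0.22 with normexp correction.

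**Figure D3:**
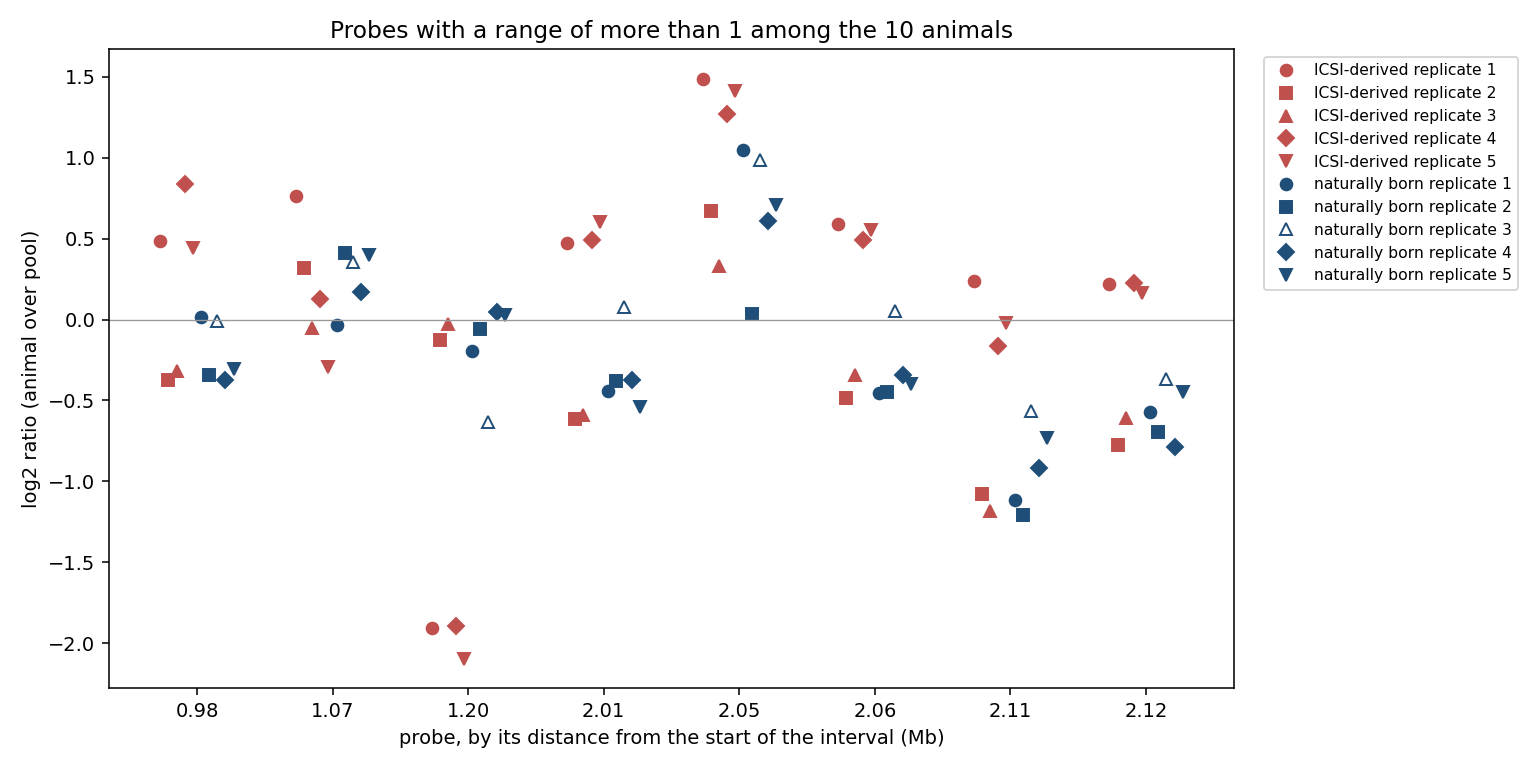
Log2 ratio of animal over pool (vertical axis) at the 8 probes with a range over 1 that were well above background, ordered by distance from the start of the interval in Mb (horizontal axis), with 1 symbol per animal (ICSI-derived in red, naturally born in blue, open symbols for naturally born replicate 3). At most of these probes ICSI-derived replicates 1, 4 and 5 lie together away from the rest, below it at the probe with the largest range; the probe at 1.07 Mb shows no such separation.

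At these 8 probes the Cy5 signal, which carries the animal, ranged over 0.65 to 2.18 among arrays, and the Cy3 signal of the common pool over 0.16 to 0.61. The Cy3 range was the smaller at 8 of 8. These probes were picked for a wide range of the ratio. The share over all probes was not counted, so 8 of 8 has no background to compare with. The contrast was uneven. At the probe that starts at 129097488, centred log2 Cy5 ran from -1.68 to 0.50 and Cy3 from 0.30 to 0.47. At the probe that starts at 128965653 both channels varied, Cy5 from -2.63 to -1.98 and Cy3 from -2.79 to -2.34.

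How often the same animals separate was counted by a rule chosen after the values were seen: a gap of more than 0.3 between neighbouring animals when the 10 values of a probe are put in order. Such a gap was found at 14 of 231 probes (6.06%), against 2.56% of autosomal probes. At 7 of the 14 it set ICSI-derived replicates 1, 4 and 5 apart from the other 7 animals, above them at 5 probes and below them at 2. At 6 of the 7, naturally born replicate 3 was the next animal. Over the autosomes 114 of 4130 probes with a gap (2.76%) separated these 3 animals, and they were concentrated on chromosome 14 (57 probes), chromosome 17 (25) and chromosome 6 (23), with 9 on all other autosomes. On chromosome 6, 16 of the 23 lay outside the interval, and all 23 started between 119.855 and 145.794 Mb. Among the 8101 probes of chromosome 6 before that, 179 had a gap and none separated these 3 animals. The pattern therefore reached well past the receptor cluster on the telomere side. On the centromere side it was found only at the isolated probes that start at 119855403 and 122499070. The 3 animals include 1 male and 2 females and were hybridised on 3 different slides.

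Across all 231 probes, each taken relative to its median over the animals, ICSI-derived replicates 1 and 4 had a Pearson correlation of 0.76, replicates 1 and 5 of 0.56 and replicates 4 and 5 of 0.55. Naturally born replicate 3 correlated with these 3 at 0.34 to 0.43. The other 39 pairs of animals lay between -0.41 and 0.29. On the other 10021 probes of chromosome 6 the same 3 pairs lay between -0.11 and 0.43 and naturally born replicate 3 with them between -0.064 and 0.098. Among members with a range of at most 1 the 3 pairs lay at 0.20 to 0.58 and naturally born replicate 3 with them at 0.017 to 0.16. The other 39 pairs lay between -0.42 and 0.25 there. Only ICSI-derived replicates 1 and 4, at 0.58, were then outside the spread of the other pairs, so the few probes with wide ranges carry much of the likeness. These correlations are across probes of the same arrays, which are not independent replicates, and ICSI-derived replicates 1 and 4 also share a high noise level and the highest correlation outside the interval.

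**Figure D4:**
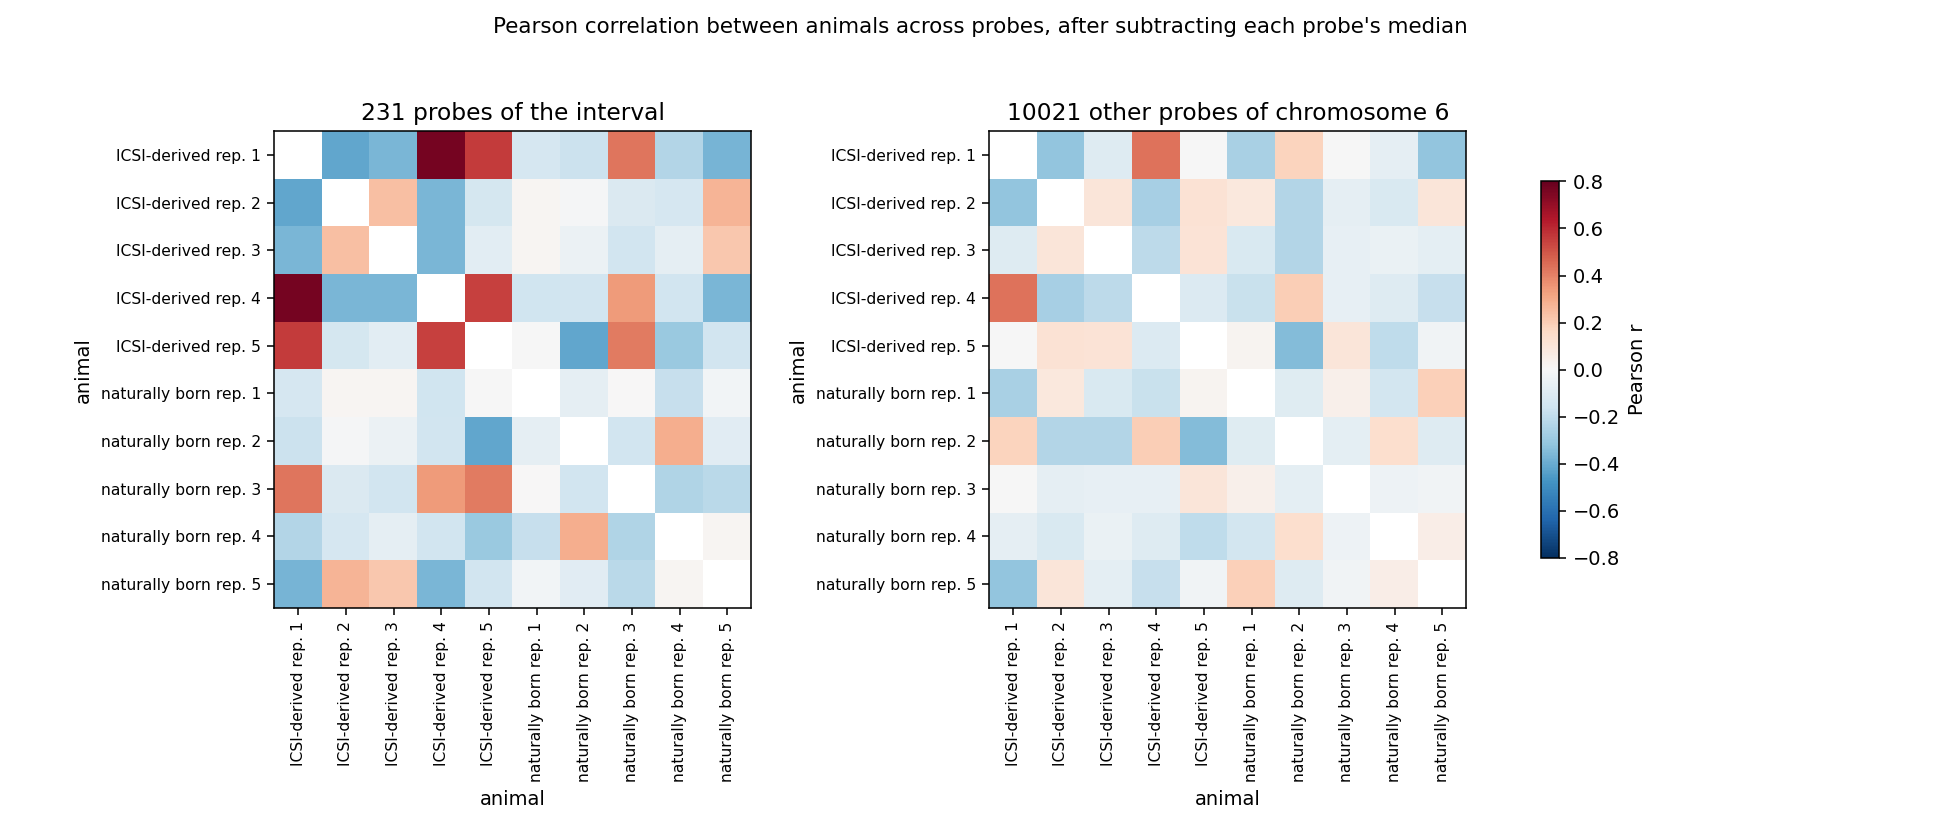
Pearson correlation between animals (both axes) across the 231 probes of the interval (left) and the other 10021 probes of chromosome 6 (right), after subtracting each probe's median over the 10 animals; colour gives r and the diagonal is blank. In the interval ICSI-derived replicates 1, 4 and 5 correlate at 0.55 to 0.76 and naturally born replicate 3 with them at 0.34 to 0.43, and on the rest of the chromosome only ICSI-derived replicates 1 and 4 stay above 0.4.

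Copy number segments were sought in each animal by splitting its profile into runs of constant mean, with at least 5 probes and an absolute mean of at least 0.25. A segment was called in the interval in 3 animals, all gains over the pool in the same stretch, and 14 of 231 probes (6.06%) were inside one, against 0.495% of autosomal probes. The count was 8 without ICSI-derived replicate 5. ICSI-derived replicate 1 had a segment at chr6:129939104-130179287 (8 probes, mean 0.71). ICSI-derived replicate 4 had one at chr6:129939104-129999219 (5 probes, mean 0.94), and ICSI-derived replicate 5 one at chr6:129908813-130213031 (14 probes, mean 0.43).

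All 3 segments hold the dim probe. Without it, their means in the animal that carries the call were 0.66 over 7 probes, 0.75 over 4 and 0.46 over 13. Over these 13 probes of the longest segment the mean was 0.42, -0.18, -0.14, 0.35 and 0.46 in ICSI-derived replicates 1 to 5 and -0.047, -0.20, 0.11, -0.15 and -0.016 in naturally born replicates 1 to 5. The 3 animals with a call were the highest, naturally born replicate 3 came next at 0.11, and the other 6 lay below 0. Over the 4 probes of the shortest segment most animals without a call also lay above the pool. There naturally born replicates 1 to 5 had 0.26, -0.024, 0.45, 0.16 and 0.18, and ICSI-derived replicates 2 and 3 had 0.12 each. ICSI-derived replicates 1, 4 and 5 had 0.86, 0.75 and 0.79. These means were chosen through the calls and are given as a description.

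The segment calls depended on the settings, among them the leaving out of dim probes. The dim probe at chr6:129939104-129939163 opens the segments of ICSI-derived replicates 1 and 4. With dim probes left out, neither was called, the segment of ICSI-derived replicate 5 shrank to 7 probes with a mean of 0.61, and ICSI-derived replicate 2 gained a call of lower signal over 23 probes with a mean of -0.26. The run of ICSI-derived replicate 4 then held 4 probes, fewer than the 5 a call needs, so it could not be called on its own at any level. With normexp correction none of the 3 gains was called, and a run of lower signal in ICSI-derived replicate 2 was (24 probes, mean -0.27). With a penalty factor of 6 in place of 3 there was no call in any animal. Both runs in ICSI-derived replicate 2 start at 129795763 and so cover the probes that lay below the pool in all 10 animals; a call against the pool there does not show a difference between animals.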

How the data were processed

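The arrays were 2-colour Agilent CGH arrays, with 1 animal (Cy5 per the labels) and the pool (Cy3) on each. Feature Extraction 10.7.3.1 subtracted background and applied a linear dye factor to give the deposited processed intensity, per the file headers. The authors' deposited value table of log10 ratios was identical to the scanner files' log ratio column at all 174305 spots per array. Partek 6.5 is named in the submitters' processing notes, with no use given. Of the arrays, 6 name the build mm9 in their headers, while 4 name none and hold identical probe positions.

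Spots other than controls were averaged by probe, and log2 ratios of the processed intensities were centred on the autosomal median without loess. limma 3.58.1 (R 4.3.3; group and sex, two-sided, Benjamini-Hochberg at 0.05) was run on all autosomal probes, and on means of 100 kb windows with at least 3 probes, after a check on simulated data. Segments came from optimal partitioning (penalty factor 3). Named were the windows and probes with the largest ranges, and probes with the highest and lowest medians at a range of at most 1. Seen values led to the choice of the probes whose groups do not overlap and of the probe at 129767570. The interval, the lists and the tests were chosen with earlier results of these data known. Same-numbered animals of the groups shared a labelled sex and a slide (replicates 1 and 2 on slide 1, 3 and 4 on slide 2, 5 on slide 3). Their deviations had correlations of -0.28 to 0.15, which cannot decide whether the numbers are pairs. The main fits did not treat them as pairs, and the replicate number and the slide were used as blocks in alternatives. Alternatives were other centring, normexp (offset 50), loess, the value table, filters, model terms, window and segment settings, and leaving out each animal; analyses within slides, without the 3 noisiest arrays and without single probes were added after the values were seen. Probe sequences and gene assignments were not analysed here. The remaining steps ran in Python 3.11.15 with numba 0.67.0, numpy 2.4.6 and pandas 2.3.3.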

Additional observations from a re-analysis of the deposited data

Results flagged for a closer look

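At 4 probes 1 animal of a group lay far from its group relative to the group's range. At chr6:129908813-129908872 naturally born replicate 3 had a log2 ratio of 0.077, against -0.54 to -0.37 in the other naturally born animals. At chr6:129964703-129964762 the same animal had 0.053, against -0.45 to -0.34. At chr6:129826050-129826109 naturally born replicate 5 had -0.44, against -0.65 to -0.62, and its value includes the upward shift of that animal's chromosome 6. At chr6:130187946-130188005 ICSI-derived replicate 5 had -0.067, against -0.55 to -0.46 in the other ICSI-derived animals. The rule marks about 1 in 20 groups by chance, and 58 groups of 5 animals were examined.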

How the results depend on the processing

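No probe and no window of the interval was called under any setting of the limma tests, leaving out each animal included. With the replicate number as a block, which also groups animals of the same slide and labelled sex, 0 probes and 0 windows were called. In that fit 24 probes (10.4%, against 3.24% of autosomal probes) passed an unadjusted limma p of 0.05. By their deviations, 0 of 5 ICSI-derived animals correlated best with their own number. The count of probes with a range over 1, 9 in the report, was 5 with normexp and 5 without the 3 noisiest arrays (an alternative chosen after seeing the data), 58 at a range over 0.5, 1 at a range over 2, and 8 to 9 when each animal was left out. The count of probes in called segments, 14 in the report, was 24 with normexp, 26 with loess (which added a run of lower signal in ICSI-derived replicate 3), 23 without dim probes, 0 with a penalty factor of 6, and 8 to 14 when each animal was left out. The cause was not tested, except that at the higher penalty fewer splits are made. The interval mean difference of 0.020 ran from 0.0096 to 0.033 when each animal was left out. Of 106 comparisons of the main values with an alternative, 97 stayed the same by the limits used, and of 475 for the ranges of named windows and probes 456 did. These counts do not measure robustness, because many outcomes were fixed in advance. Leaving out an animal that is neither highest nor lowest cannot change a range. Leaving out an animal without a call cannot change the segment count, and the value table repeats the scanner ratios. The limits also counted the interval mean difference as the same at -0.0097, without the 3 noisiest arrays. Background correction also moved single ranges: normexp brought that of the probe at 130012400 from 1.44 to 0.48, at 129946079 from 1.45 to 0.58, at 128965653 from 1.06 to 0.22 and at 128847919 from 0.98 to 0.19. Wide spacing leaves 9 windows without enough probes.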
